A study of Caenorhabditis elegans with 35 samples.

Results

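Transthyretin-like protein genes (ttr genes) were followed through whole-animal RNA-seq of Caenorhabditis elegans larvae. Members were all loci of the deposited table with a ttr- symbol and number among their gene names, which gave 53 of 37555 loci and 59 ttr symbols. The table held 7 genotypes with 5 libraries each, of which wild type and the dauer-constitutive double mutant eak-7;akt-1 were the references. The other 5 genotypes added another mutation to those in eak-7 and akt-1, so that all 6 mutant genotypes carried these. They are named here by the added gene or allele, as the daf-16 mutant (daf-16;eak-7;akt-1), the daf-12 mutant (eak-7;akt-1;daf-12), the dpy-21 mutant (eak-7;akt-1 dpy-21), the dp268 mutant (set-4(dp268);eak-7;akt-1), which has a point mutation in the SET domain, and the n4600 mutant (set-4(n4600);eak-7;akt-1), which has a deletion. Eggs were laid over 6 h at 20°C by at least 200 adults and kept for 24 h at 25°C, so that each library is a pool of whole larvae.

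The transthyretin-like proteins are a family that is greatly expanded in nematodes. Most are small, and a signal peptide marks them for secretion. They resemble in sequence the vertebrate transthyretin that carries thyroid hormone and retinol in blood, and most of them have no assigned function. TTR-52 bridges phosphatidylserine on a dying cell to the engulfment receptor CED-1, and TTR-33 protects dopaminergic neurons from oxidative damage. Dauer is the arrested larval form that the double mutant animals enter at this temperature, through the FoxO factor DAF-16 and the nuclear receptor DAF-12. DPY-21, a dosage compensation protein, and SET-4, a histone H4 lysine 20 methyltransferase, are needed for that arrest.

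The deposited values were fragment counts scaled by library, here called scaled counts, and came from between 34193 and 88068 fragments per library. At this depth 8710 loci were above 0 in any library and 1101 reached 5 scaled counts in at least 5 libraries, the condition for a test. The libraries formed groups of 26 and 9 on the first principal component, and the smaller group took 2 libraries each of wild type, the double mutant and the dpy-21 mutant, 1 each of the daf-16 mutant, the daf-12 mutant and the n4600 mutant, and 0 of the dp268 mutant. The genotypes could not be checked at the mutated genes, since the loci of set-4, akt-1, daf-12, eak-7 and daf-16 never passed 3 fragments and that of dpy-21 was at 0 everywhere. Genes used in every cell, eef-1A.1 and pmp-3, were also listed at 0 throughout, so a 0 in the table does not show that a gene was silent.

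Few of the ttr loci were measured well. Of the 53, 19 were listed at 0 in all 35 libraries, 13 were above 0 in 1 to 4 libraries and 21 in at least 5, and only 4 passed the filter, or 7.55% of them beside 2.93% of all loci in the table. In 42 of them no library had more than 3 fragments, which is taken here as the floor, with counting error alone in view. The ttr loci together held 1555 fragments, or 0.0768% of all fragments, and ttr-24 alone took 36.9% of these. The 4 tested loci took 66.8%. They were ttr-24, ttr-18/twk-5, mam-5/ttr-46 and ttr-51, and a slash joins genes that the authors' assembly had merged into a locus.

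The genes themselves are short and scattered. In the WBcel235 annotation, in which 58 of the 59 symbols were placed, their longest transcripts ran from 460 to 1415 nt with a median of 572 nt, and 55 were no longer than 800 nt. Chromosome V held 22 of them, X 12, IV 10, III 9, I 3 and II 2. The 3 loci on chromosome I were at 0 in every library. Of the 10 loci on the X chromosome, where DPY-21 and SET-4 act in dosage compensation, 5 were above 0 in at least 5 libraries and 0 were tested. These 10 X-linked loci summed to 80 fragments over the 35 libraries, with at most 7 fragments in a library of any genotype.

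Detection was set beside transcript length, because short transcripts were more often detected in this table. Of other single-gene coding loci, 27.4% up to 400 nt and 16.9% above 800 nt were above 0 in at least 5 libraries. Among loci of a single coding gene, 7 of 29 ttr loci (24.1%) were above 0 in at least 5 libraries and 2 (6.90%) were tested. Among the 6509 other single-gene coding loci of 460 to 1415 nt these shares were 11.9% and 2.57%, but the ttr genes were also shorter, with a median of 569 nt against 984 nt. Among transcripts above 400 and up to 500 nt, 3 of 9 ttr loci were above 0 in at least 5 libraries (33.3%), beside 25.9% of 540 other loci. From 501 to 600 nt it was 2 of 10 (20%), beside 18.6% of 526. From 601 to 800 nt it was 2 of 8 (25%), beside 14.25% of 1109, and above 800 nt 0 of 2, beside 16.9%. These shares were not tested.

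ttr-24 was the most abundant member and was above 0 in all 35 libraries. It lies on the minus strand of chromosome V at 18555387-18556643, is identified as WBGene00013077 and has a 590 nt transcript of 3 exons. In the double mutant it had 20.0, 20.6, 26.7, 25.7 and 19.8 scaled counts in replicates 6 to 10, a mean of 22.5 ± 3.36 (SD, n = 5). In the dpy-21 mutant it had 11, 13.9, 13.9, 8.58 and 8.70, a mean of 11.2 ± 2.63 (SD, n = 5). Every dpy-21 mutant library was thus below every double mutant library. Wild type had 22.8, 9.58, 16.8, 10.9 and 9.85 scaled counts, a mean of 14 ± 5.75 (SD, n = 5). Its replicate 6 lay among the double mutant libraries and the other 4 lay below them.

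The other mutants lay between these levels. ttr-24 had 12.6, 19.1, 17.9, 16.2 and 10.6 scaled counts in the daf-16 mutant, a mean of 15.3 ± 3.59 (SD, n = 5), and these too were all below the double mutant. It had 14.7, 16.9, 13.4, 21.1 and 22.0 in the daf-12 mutant, a mean of 17.6 ± 3.84 (SD, n = 5), and the groups overlapped. In the set-4 mutants the spread was wider than in the double mutant. The n4600 mutant had 15.8, 11.9, 26.9, 19.2 and 17.0, a mean of 18.2 ± 5.54 (SD, n = 5). The dp268 mutant had 30.5, 17.2, 16.2, 17.3 and 8.45, a mean of 17.9 ± 7.93 (SD, n = 5), which included the highest and the lowest ttr-24 values of all 35 libraries.

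**Figure D1:**
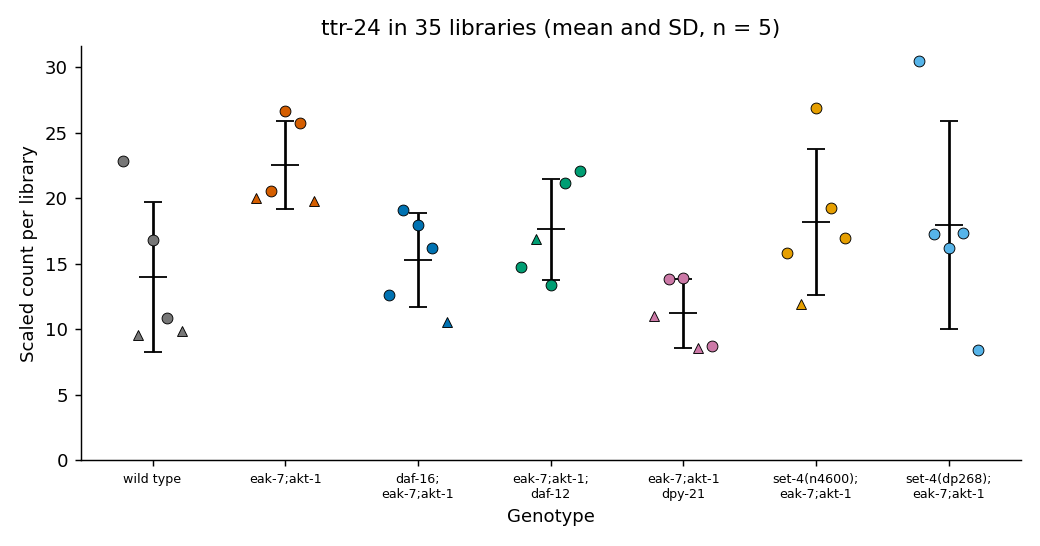
Scaled counts of ttr-24 (vertical axis) in each of the 35 libraries, by genotype (horizontal axis), with points in the order of replicates 6 to 10, circles for the larger and triangles for the smaller library group, and bars for the mean and SD of 5 libraries. The dpy-21 mutant libraries, at 8.58 to 13.9, all sit below the double mutant libraries, at 19.8 to 26.7.

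Each genotype was compared with the double mutant, as in the study, to ask which levels depend on the added mutation, and with wild type. Differences are log2 fold changes of scaled count + 1 from a limma model of all 35 libraries, adjusted after Benjamini and Hochberg over the 1101 tested loci, and were called when the adjusted p-value was below 0.05 and the fold change was 1.5 or more. All 6 comparisons share the double mutant libraries. The libraries of a genotype are biological replicates according to the study, each a pool of progeny, and p-values measure the spread between such pools.

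In the dpy-21 mutant, ttr-24 was the only one of the 4 tested ttr loci to be called against the double mutant, in a comparison in which 12.3% of all tested loci were called. It fell by 0.96 on the log2 scale (SE 0.261, 95% interval -1.49 to -0.43, limma adjusted p = 0.0106). An exact two-sided permutation test of the 5 against 5 libraries gave an unadjusted p of 0.00794, the smallest it can give, which 3 of 44 such comparisons reached. The median tested locus fell by 0.20 in this comparison. After rescaling by the median of ratios, which raised that median by 0.21, ttr-24 was at -0.71 and no longer called (limma adjusted p = 0.10). In the 6 libraries of these genotypes in the larger library group it was at -0.96 with an adjusted p of 0.0633, and in edgeR on recovered fragments at -0.68 with an adjusted p of 0.136. The summed level of 7 intestine markers also differed without overlap, at 84.4 to 130 scaled counts in the dpy-21 mutant and 139 to 181 in the double mutant. Of these markers cpr-1 was listed at 0 in every library and 0 of the 4 tested were called. mtl-2, at -0.54 with a limma adjusted p of 0.0362, did not reach a fold change of 1.5. It had up to 186 fragments in a library, asp-1 up to 51 and the others at most 12, so mtl-2 and asp-1 weigh most in the sums. asp-1 was at -0.44, act-5 at -0.21 and VW02B12L.2/vha-6 at 0.35 (limma adjusted p = 0.157, 0.81 and 0.63). The part of the intestine in the ttr-24 difference was not tested. Median depth was 53005 fragments in the dpy-21 mutant and 52912 in the double mutant. In bulk samples fewer cells of a type and less RNA per cell cannot be told apart.

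Against wild type, ttr-24 in the dpy-21 mutant differed by -0.24 (95% interval -0.78 to 0.29, limma adjusted p = 0.706). The wild type itself was lower than the double mutant by a value that missed the threshold, at -0.72 (SE 0.261, limma adjusted p = 0.0696). This value was -0.55 in the larger library group, with an adjusted p of 0.355. Without replicate 6 of every genotype, which removed the highest wild-type library, it was -0.94 and passed (limma adjusted p = 0.0186). The daf-16 mutant was at -0.55 versus the double mutant (SE 0.261, 95% interval -1.08 to -0.02, limma adjusted p = 0.218), although the libraries did not overlap. The remaining comparisons of ttr-24 with the double mutant were -0.35 for the daf-12 mutant, -0.33 for the n4600 mutant and -0.40 for the dp268 mutant, with 95% intervals that all held 0. Of the 11 comparisons run, only that between the highest mean, in the double mutant, and the lowest, in the dpy-21 mutant, was called. Neighbours in the order of means that were compared did not differ beyond their spread, and these were the double mutant with the n4600 mutant, the daf-16 mutant with wild type (0.17, 95% interval -0.36 to 0.70) and wild type with the dpy-21 mutant.

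The nearest relatives of ttr-24 on the chromosome were hardly detected. ttr-25 starts 70 bp from ttr-24 on the opposite strand, at V 18556714-18558099, and has a transcript of similar length, 577 nt. It had 3 fragments in all libraries together, where ttr-24 had 574. The next locus, srg-34/ttr-26, had 1 fragment. The same contrast was seen on chromosome III, where ttr-8 had 74 fragments and ttr-32, 1063 bp away on the opposite strand, had 0. On chromosome IV, ttr-17 had 22 fragments and ttr-16, 1881 bp away on the same strand, had 1. A weaker contrast was seen there between ttr-51, with 111 fragments, and ttr-45, 1913 bp away on the opposite strand. The merged locus JC8.16/bus-12/ttr-45 had 44, which can belong to any of its genes.

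ttr-18/twk-5 was the second most abundant locus, with 180 fragments. It lies on the minus strand of chromosome II and joins ttr-18 (WBGene00007142, 11485510-11486748) to twk-5 (11483215-11485300), a two-pore potassium channel gene that begins 209 bp downstream, so its fragments can belong to either gene. It was lowest and least variable in wild type, at 2.97, 3.19, 2.1, 2.51 and 1.23 scaled counts in replicates 6 to 10. The dp268 mutant had 15.9, 4.60, 7.58, 5.77 and 8.45, each above every wild-type library. The double mutant had 4.28, 9.74, 1.16, 9.51 and 4.94, which spanned the wild-type values. Medians in the other genotypes were 5.98 in the daf-16 mutant, 3.08 in the daf-12 mutant, 5.50 in the dpy-21 mutant and 5.25 in the n4600 mutant, and in each of these at least 1 library lay at or below the highest wild-type value.

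In the dp268 mutant versus wild type, ttr-18/twk-5 rose by 1.40 on the log2 scale (SE 0.448, 95% interval 0.49 to 2.31, limma adjusted p = 0.0323), the only ttr call in the comparisons with wild type. The percentage of tested loci called there was 13.7%. The exact two-sided permutation p was 0.00794, unadjusted. The wild-type libraries held 1 to 3 fragments each, 12 in all against 37, which is a ratio of 3.42 (exact 95% interval 1.74 to 7.20, counting error only). The call was lost on leaving out any of 5 of the 10 libraries alone, which were wild type replicates 8 (1.38, limma adjusted p = 0.0569) and 10 (1.26, 0.0904) and the dp268 mutant replicates 6 (1.16, 0.111), 8 (1.41, 0.0547) and 10 (1.37, 0.0607). It was also lost in the larger library group, at 1.32 with an adjusted p of 0.11. edgeR and DESeq2 on recovered fragments kept the call, at 1.58 and 1.63 (adjusted p = 0.0361 and 0.0357). So did limma after median-of-ratios rescaling, at 1.28 (limma adjusted p = 0.0472). The other set-4 allele was at 0.86 versus wild type (limma adjusted p = 0.245), and the difference between the alleles was not tested. The summed intestine markers were 165 to 261 in the dp268 mutant and 107 to 157 in wild type, without overlap. Of the tested ones, VW02B12L.2/vha-6 and mtl-2 were called, at 1.01 and 0.95 (limma adjusted p = 0.0474 and 0.000172). act-5 and asp-1 were not called, at -0.07 and 0.34 (limma adjusted p = 0.908 and 0.27). The part of the intestine in the ttr-18/twk-5 difference was not tested. Against the double mutant, ttr-18/twk-5 lay between -0.85 in wild type and 0.55 in the dp268 mutant, with adjusted p-values of 0.242 to 1.0.

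mam-5/ttr-46 and ttr-51 were not called in any comparison. mam-5/ttr-46, on the plus strand of chromosome V, joins ttr-46 (9951233-9952178) to mam-5 (9952699-9956928), which encodes a protein with a MAM domain. It ranged from 1.06 to 5.01 scaled counts in wild type, from 3.25 to 10.9 in the double mutant and from 4.26 to 9.62 in the n4600 mutant. It ranged from 2.64 to 5.30 in the daf-16 mutant, from 0 to 6.71 in the daf-12 mutant, from 1.23 to 7.37 in the dpy-21 mutant and from 2.16 to 12.2 in the dp268 mutant. The group ranges all overlapped. Its largest difference was 1.14 for the n4600 mutant versus wild type (SE 0.431, limma adjusted p = 0.0832).

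ttr-51 (WBGene00010440) lies on the minus strand of chromosome IV at 13250655-13252311, with a 481 nt transcript of 2 exons. It passed the filter in exactly 5 libraries and had at most 9 fragments in any. Its values were 0 to 4.21 in the daf-16 mutant, with a median of 1.80, and 2.32 to 5.93 in the double mutant, with a median of 4.28. That difference, at -0.95 (SE 0.449, limma adjusted p = 0.214), was its largest, and the groups overlapped. Medians were 2.51 in wild type, 3.17 in the daf-12 mutant, 2.46 in the dpy-21 mutant, 2.56 in the n4600 mutant and 4.60 in the dp268 mutant. Per kilobase of transcript, the mean level over all libraries was 28.3 scaled counts for ttr-24, 6.77 for ttr-51 and 4.62 for ttr-8, the only single-gene loci of the family above 2 on this scale.

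**Figure D2:**
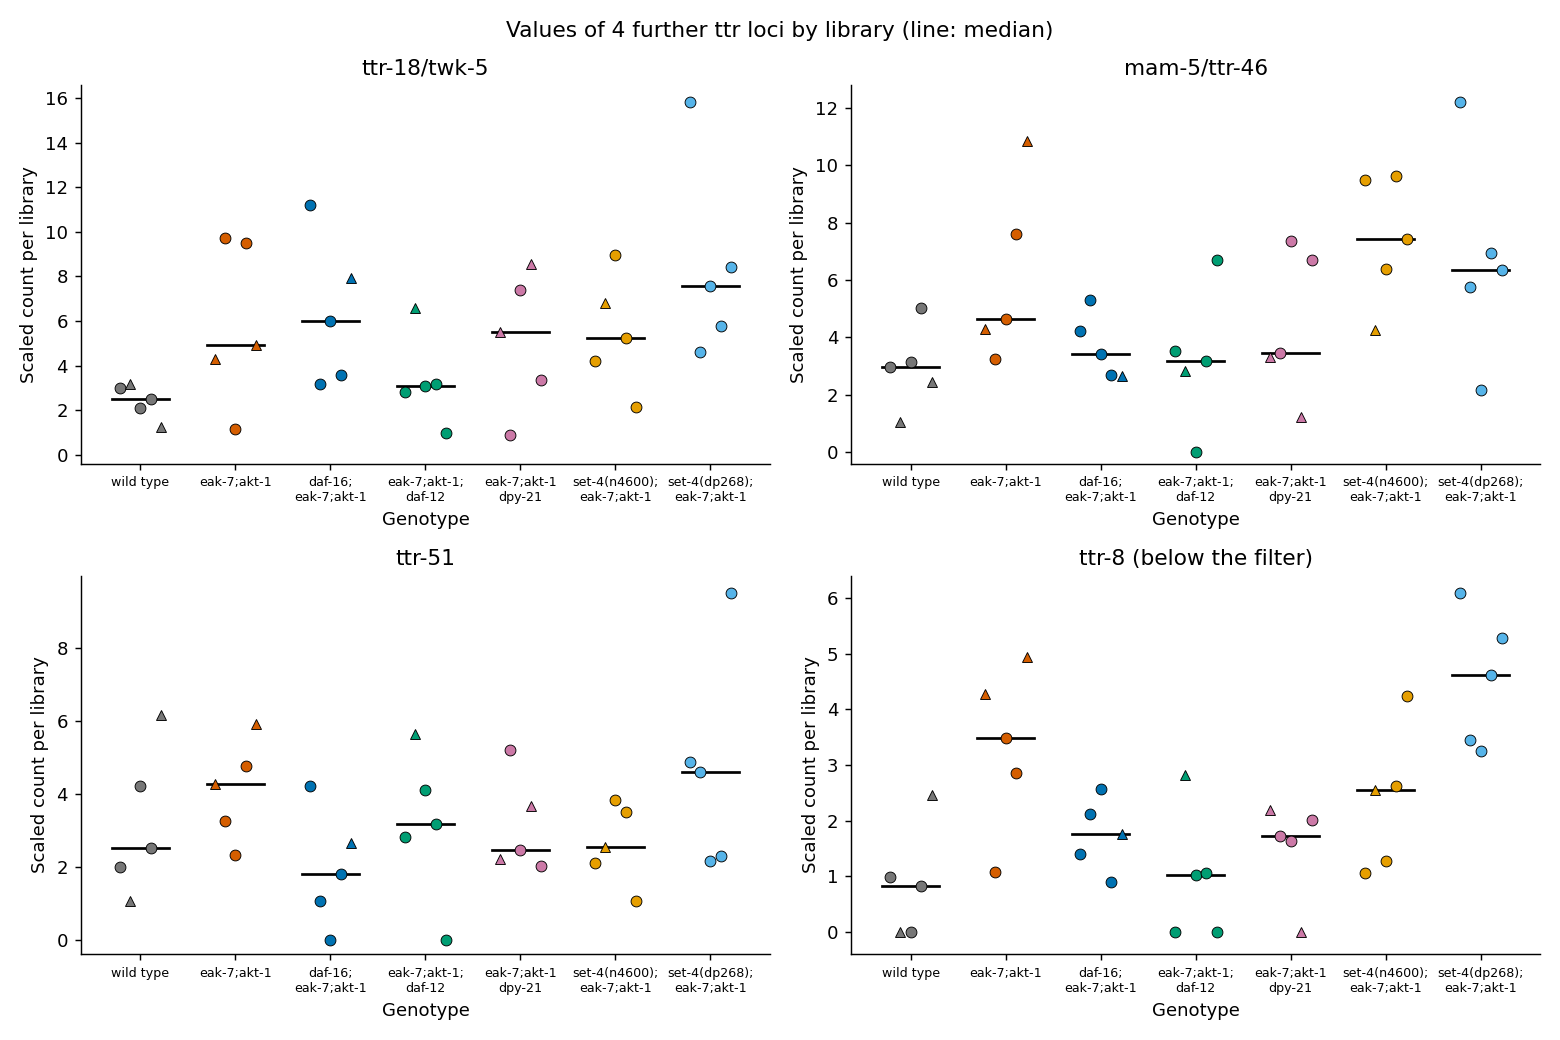
Scaled counts (vertical axes) of ttr-18/twk-5, mam-5/ttr-46, ttr-51 and ttr-8 in each library, by genotype, with circles for the larger and triangles for the smaller library group and a line at the median of 5 libraries. At ttr-18/twk-5 and ttr-8 all the dp268 mutant libraries sit above all wild-type libraries, at 4.60 to 15.9 and 3.25 to 6.10, and ttr-8 was below the filter for testing.

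Over the 4 tested loci the counts called versus the double mutant were 0 in wild type, the daf-16 mutant and the daf-12 mutant, where 13%, 10.4% and 9.99% of all tested loci were called, and 0 in the n4600 mutant and the dp268 mutant, where 0.182% and 0.545% were. In limma an unadjusted p under 0.05 was reached by 1, 2, 1, 0 and 0 of the 4 loci in these comparisons, and edgeR and DESeq2 called 0 in each. Versus wild type, limma called 0 of 4 in the daf-16 mutant, the daf-12 mutant, the dpy-21 mutant and the n4600 mutant, beside 0.817%, 1.09%, 7.99% and 12% of all tested loci. An unadjusted limma p under 0.05 was reached there by 1, 0, 0 and 1 of the 4 loci, beside 81, 136, 223 and 258 of all 1101. edgeR and DESeq2 again called 0 of the 4.

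All 4 tested loci had values below the double mutant in wild type and in the daf-12 mutant, under the deposited scaling and after rescaling by the median of ratios. In wild type their median log2 difference was -0.78, where the median of all tested loci was -0.19. In the daf-12 mutant it was -0.55 beside -0.08, and in the daf-16 mutant, where 3 of 4 were lower, -0.55 beside -0.05. In the dpy-21 mutant all 4 were lower and the median was -0.39 beside -0.20, but ttr-18/twk-5 turned to 0.03 after rescaling and mam-5/ttr-46 to 0.16 in the larger library group. The medians were -0.16 beside -0.01 for the n4600 mutant and 0.06 beside 0.06 for the dp268 mutant. With standard errors of 0.431 to 0.449 at 3 of the loci, the intervals of most of these differences held 0.

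**Figure D3:**
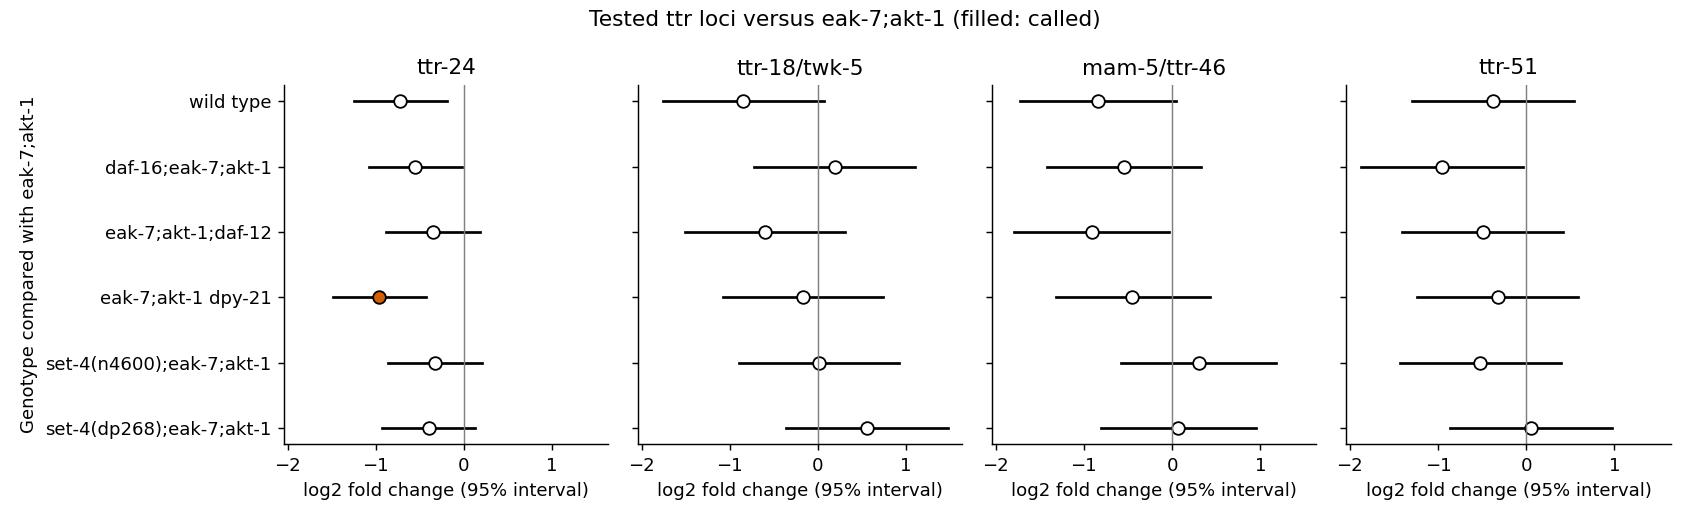
Log2 fold changes versus the double mutant (horizontal axes) of the 4 tested ttr loci in 6 genotypes (vertical axis), with lines for the 95% interval of the limma fit and a filled point where a difference was called. ttr-24 in the dpy-21 mutant, at -0.96, is the only filled point.

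Summed over all 53 loci, the ttr level was 49.8 to 67.2 scaled counts per library in the double mutant, with a median of 51.4. Under the deposited scaling wild type ranged from 25.5 to 45.6 and the daf-16 mutant from 33.3 to 43.5. The daf-12 mutant ranged from 31.8 to 46.9 and the dpy-21 mutant from 31.9 to 41.8. None of these 4 ranges overlapped with the double mutant. The set-4 mutants, at 40.3 to 58.9 for n4600 and 40.0 to 91.5 for dp268, did overlap with it. The sums were not recomputed after rescaling by the median of ratios, so whether the separation holds there was not tested. That rescaling raised the median tested locus versus the double mutant on the log2 scale. The shift was 0.13 in wild type, 0.09 in the daf-16 mutant, 0.15 in the daf-12 mutant and 0.21 in the dpy-21 mutant. Without ttr-24 the double mutant sum was 23.2 to 47.4 and overlapped with all 4 of these genotypes, at 16 to 30.8 in wild type, 17.1 to 31.7 in the daf-16 mutant, 14.4 to 30.0 in the daf-12 mutant and 20.9 to 28.8 in the dpy-21 mutant. Markers of the molting cycle, in which collagens and secreted cuticle proteins are made, had low sums in the double mutant. The sum of 7 such markers was 1.08 to 7.14 there, 11.1 to 17.8 in wild type, at most 18.8 with a median of 16.3 in the daf-12 mutant, 4.21 to 16.7 in the daf-16 mutant and 4.33 to 13.9 in the dpy-21 mutant. Of the 2 tested, 1 rose in wild type and in the daf-12 mutant, 0 of the 7 were at 0 in all libraries, and their part in the ttr levels was not tested. Of 3 tested loci among 6 hypodermis markers, the collagen loci of rol-6 and sqt-3 rose in wild type, the daf-16 mutant and the daf-12 mutant, where 0 of the 6 were at 0 throughout, and the summed markers were 2.32 to 7.61 in the double mutant, 7.52 to 18.9 in wild type, a median of 14.1 from a lowest value of 4.21 in the daf-16 mutant, and 14.1 to 21.1 in the daf-12 mutant. The third tested hypodermis locus, lin-26/lir-1/lir-2/rpa-1, was not called, at -0.59, -0.02 and 0.24 in the same 3 genotypes (limma adjusted p = 0.464, 0.993 and 0.871). In the dpy-21 mutant 0 of the 3 were called, with rol-6 at 1.06 and the sqt-3 locus at 0.97 (limma adjusted p = 0.101 and 0.213). The summed hypodermis markers there were 4.69 to 7.70. In the set-4 mutants the summed molting markers were 4.26 to 7.87 for n4600 and 3.17 to 11.5 for dp268. The summed intestine markers were 90.1 to 140.4 in the daf-12 mutant, where 1 of the 4 tested, the aspartic protease gene asp-1, fell by 0.88 (limma adjusted p = 0.00227), 107 to 157 in wild type and 157 to 187 in the daf-16 mutant, where 0 of the 4 were called, beside 139 to 181 in the double mutant. The 7 body wall muscle markers summed to 8.56 to 16.2 in the double mutant and 2.97 to 10.5 in wild type. Their sums were 2.70 to 9.83 in the daf-16 mutant, 2.11 to 10.6 in the daf-12 mutant and 3.46 to 12.1 in the dpy-21 mutant. The 1 tested muscle locus, mlc-2, was not called in these comparisons. The part of these tissues in the ttr sums was not tested.

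The other 17 loci above 0 in at least 5 libraries stayed below the filter, with 5 to 74 fragments each over all libraries and at most 5 in any. They were fitted in a further limma run over the 4569 loci above 0 in at least 5 libraries. This run called 0 of 21 ttr loci in each of the 6 comparisons with the double mutant, ttr-24 in the dpy-21 mutant included (adjusted p = 0.07). The percentage of all loci called was 3.11% for wild type, 2.41% for the daf-16 mutant, 2.82% for the daf-12 mutant, 2.1% for the dpy-21 mutant, 0.0438% for the n4600 mutant and 0.153% for the dp268 mutant. In the same order an unadjusted limma p under 0.05 was reached by 2, 2, 2, 3, 2 and 1 of the 21 loci. Of all 4569 loci, 576, 516, 488, 542, 263 and 290 reached it. edgeR and DESeq2 were not run on these loci.

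ttr-8 (WBGene00020049, III 7564500-7565347, minus strand, 474 nt) was the most abundant of these. It had 5, 3, 3, 4 and 5 fragments in the dp268 mutant and 1, 0, 0, 1 and 2 in wild type, in replicates 6 to 10. Every library of the former was thus above every library of the latter. In the further run ttr-8 was called in the dp268 mutant versus wild type (adjusted p = 0.00891), where 2.78% of all loci and 1 of 21 ttr loci were called. The fragments, 20 against 4, gave a ratio of 5.54 (exact 95% interval 1.86 to 22.3, counting error only). It had 3, 1, 3, 3 and 5 fragments in the double mutant, a ratio to wild type of 4.05 (1.29 to 16.7) that the run did not call (adjusted p = 0.0804), and 5 in all in the daf-12 mutant, at an adjusted p of 0.118 versus the double mutant. The n4600 mutant lay between, with 12 fragments in all.

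The remaining loci are given by their fragments. T14G10.5/ttr-53/ttr-54 had 68, from 5 in the dp268 mutant, with 1 in each of its libraries, to 14 in the daf-12 mutant. frpr-5/ttr-44, which includes a gene for a neuropeptide receptor of the FMRFamide family, had 51, and F41C3.11/ttr-41 had 49. Both were highest in the set-4 mutants, with 12 and 11 fragments at frpr-5/ttr-44 and 10 and 11 at F41C3.11/ttr-41, where the double mutant had 5 and 6. JC8.16/bus-12/ttr-45 had 44 fragments. ced-9/mev-1/ttr-15 joins ttr-15 to the cell death inhibitor ced-9 and to mev-1, a subunit of succinate dehydrogenase, and had 40. It had 9 fragments in the double mutant, in all 5 libraries, and 2 in the daf-16 mutant, with no fold given since no library passed 3.

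The lowest loci showed scattered fragments. ttr-1/ttr-2, with 19, was listed at 0 in all libraries of the daf-16 mutant and the dpy-21 mutant and had 6 and 5 in the set-4 mutants. ttr-17 had 22 fragments, 8 of them in the dpy-21 mutant and 0 in the n4600 mutant. C14C10.2/C14C10.4/C14C10.8/ril-2/ttr-43 had 17, with 6 in wild type, where all 5 libraries were above 0. ttr-47 had 14 fragments, 4 of them in 1 double mutant library, and ttr-39 had 10. The 5 X-linked loci belong here, namely ceh-18/lim-4/ttr-48 and sng-1/ttr-30/ttr-59 with 26 fragments each, glr-8/ttr-35/ttr-36 with 11, ttr-37 with 6 and F23G4.1/T28B4.4/ttr-6 with 5. Their neighbours in the locus include homeobox, synaptogyrin and glutamate receptor genes. The X-linked sum was 17 fragments in the dpy-21 mutant, 9 and 13 in the set-4 mutants, 13 in the daf-16 mutant, 7 in the daf-12 mutant, 10 in the double mutant and 11 in wild type, too few to show a difference at this depth.

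**Figure D4:**
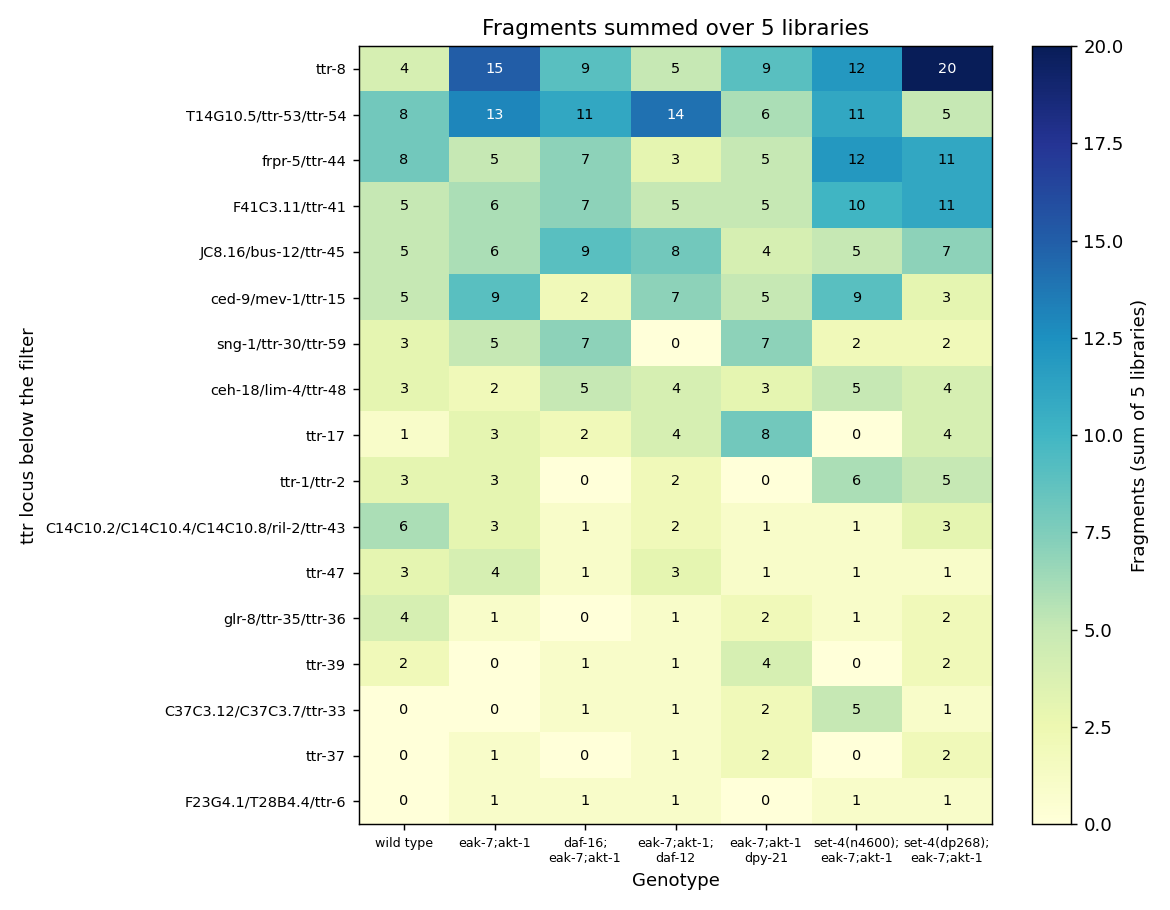
Fragments summed over the 5 libraries of each genotype (columns) at the 17 ttr loci (rows) that were above 0 in at least 5 libraries but below the filter, with the number in each cell and darker color for more fragments. ttr-8 ranges from 4 fragments in wild type to 20 in the dp268 mutant.

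The members with known roles were below the filter. The locus F11F1.6/nas-1/ttr-52 was listed at 0 in all libraries, C37C3.12/C37C3.7/ttr-33 had 10 fragments in 6 libraries, 5 of them in the n4600 mutant, and ttr-11 had 2 fragments in 2 libraries. In the further limma run C37C3.12/C37C3.7/ttr-33 was not called in any comparison, with an unadjusted p of 0.0301 for the n4600 mutant versus the double mutant and versus wild type (adjusted p = 0.777 and 0.352), and no fold is given since no library passed 3 fragments. A list of 16 genes was counted beside them, which are genes of cell corpse engulfment and phosphatidylserine exposure except svh-1 and svh-2, a growth factor and its receptor in axon regeneration. Of these, ced-7, ced-8 and svh-1 were at 0 and 2 were tested, both in merged loci. Y41D4B.11/ced-2/set-23 holds the adaptor gene ced-2, and C09G12.19/ced-10/tsg-101 the Rac GTPase gene ced-10. In limma 0 of these 2 were called versus the double mutant in any genotype. The lowest limma adjusted p-value, 0.15, was at C09G12.19/ced-10/tsg-101 in the dpy-21 mutant (-0.97). There 1 of the 2 reached an unadjusted p under 0.05, beside 255 of all 1101 tested loci. Of the 2 genes for transthyretin-related hydroxyisourate hydrolases, enzymes of urate breakdown with the same fold, R09H10.3 was listed at 0 and ZK697.8 had 1 fragment in 1 library.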

How the data were processed

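Polyadenylated RNA of 35 libraries (100 ng of total RNA each) was sequenced by the authors in paired-end runs. Per the labels and the submitters' processing notes, reads passed FastQC and cutadapt, TopHat2 2.0.9 with Bowtie2 2.1.0, Cufflinks and Cuffdiff 2.1.1 on WBcel235; the paper's methods name a later Cuffdiff version and an earlier transcriptome with de novo assembly. Strand was not stated. What the authors deposited is a signal per library and locus, namely a fragment count over a library size factor. Values were whole multiples of a step of 0.669 to 1.43 scaled counts, within a tolerance of 0.1, for 100% of values above 0, so that fragments were recovered.

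A locus entered the test if 5 or more libraries had 5 or more scaled counts. The test was limma 3.58.1 (trend) in R 4.3.3 on log2(scaled count + 1). A fold change on this scale understates the change of low loci. Exact permutation tests used scipy 1.17.1 in Python 3.11.15, and ratios of fragments an exact conditional 95% interval. This interval covers counting error only, since fragments are summed over the libraries of a genotype and the spread between libraries is not used. The fragments carried no molecular identifiers. Alternatives were another pseudocount (0.5), filter and scaling, a replicate block, subsets of libraries, and count models on recovered fragments (DESeq2 1.42.0, edgeR 4.0.16). The comparisons of mutants with wild type were part of the design, but their alternatives and the removal of single libraries were chosen after seeing the data. The fit was also run on simulated fragments with known changes, drawn without library groups, and no result given here rests on that run.

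Members above 0 in at least 5 libraries were named, members below were counted, and ttr-52, ttr-33 and ttr-11 were named in any case. ttr-8, ttr-16, ttr-25, ttr-26 and ttr-32, and ttr-18/twk-5 for its values in every library, were singled out after their values were seen. Members and lists were chosen with earlier results of these data known. Coordinates are those of the WBcel235 annotation. Sequences were not used here.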

Additional observations from a re-analysis of the deposited data

How the results depend on the processing

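Counts of ttr loci called were recomputed in 14 alternatives for each of 11 comparisons, and 141 of 154 counts did not change. Most of these comparisons had a count of 0 to begin with, which only a new call could change, so this share says little on the stability of the calls. For the dpy-21 mutant versus the double mutant the count of 1, ttr-24, was 0 without a filter beyond values above 0 in 5 libraries, after median-of-ratios rescaling, in the larger library group and in edgeR and DESeq2 on fragments. Its log2 fold change there was -0.96, -0.71, -0.96, -0.68 and -0.72, with adjusted p-values of 0.07, 0.10, 0.0633, 0.136 and 0.126. Leaving out 1 replicate number in all genotypes gave counts of 0 to 1 and values of -1.07 to -0.83 (adjusted p 0.0166 to 0.101), and the call was lost without replicate 9. Leaving out each of the 10 libraries alone, the call held in 10 of 10, at -1.04 to -0.88. For the dp268 mutant versus wild type the count of 1, ttr-18/twk-5, was 0 with a filter of at least 10 scaled counts, which left only ttr-24 to test. It was also 0 in the larger library group. That subset left out 2 libraries of wild type and 0 of the dp268 mutant, so fewer libraries and library group cannot be told apart. In edgeR and DESeq2 on fragments the count stayed at 1, with ttr-18/twk-5 at 1.58 and 1.63. Without a filter the count was 1, but of ttr-8 instead, with ttr-18/twk-5 at an adjusted p of 0.0883. Leaving out replicate numbers gave counts of 0 to 1 and values of 1.23 to 1.65 (adjusted p 0.012 to 0.144), with the call kept only without replicate 7. Leaving out single libraries gave counts of 0 to 1 and values of 1.16 to 1.56, and 5 of 10 lost the call. For wild type versus the double mutant the count of 0 ranged from 0 to 1 on leaving out replicate numbers, with 1 without replicate 6. No value changed sign at these called loci. Apart from the loss at the filter of at least 10 scaled counts, the causes of the lost calls were not tested.

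Libraries of the same replicate number were hardly more alike than others. Deviations from the genotype means correlated above 0.1 in 45 of 105 same-numbered pairs (median r 0.0345). In differently numbered pairs it was 165 of 420 (median r 0.0157). Of 35 libraries, 10 correlated best with their own number. With a replicate block the counts were the same in all 11 comparisons, with ttr-24 at -0.96 (adjusted p = 0.00925) and ttr-18/twk-5 at 1.40 (adjusted p = 0.0363). At this depth 49 of 53 loci did not pass the filter, and 17 of these were fitted only with the looser one. A Dixon test of the gap beside the highest or lowest library, at 0.71 of the range, marked 0 of 28 groups at the tested loci. This does not show that no single library decides a call, since 5 of 10 removals of 1 library lost that of ttr-18/twk-5.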
